A study of Homo sapiens with 6 samples.

Results

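The keratin genes of type I and type II were described by where they stood on the 2 gene lists deposited for SiHa cells, whose names call their genes highly or lowly expressed. Members were all listed symbols that begin with KRT and a digit, which leaves out the keratin associated proteins. There were 37 members among the 8942 symbols that stood on 1 list alone, 4 of them high and 33 low. SiHa is an established line from a squamous cell carcinoma of the cervix, taken at the primary site. Cells were seeded in transwell plates, and the migrated and the non-migrated fraction were scraped and pooled after 10 hours, with 3 libraries of each and no other agent named. Both fractions came from this 1 line, and the labels do not say whether the replicate sets were separate cultures. The migrated libraries held 23166447 to 25662866 assigned fragments and the non-migrated libraries 18226280 to 33466924.

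A list places a gene and gives no level. In each list the value column is empty, and the sources used here do not state how its genes were picked or from which libraries. The deposited table of fragments per library names its 26006 loci by assembly IDs without gene symbols or positions. No keratin could therefore be given a level, a fold change or a test between migrated and non-migrated cells. The lists were read as statements on level in SiHa cells and not on change between the fractions. They have no replicates, so the counts below carry no error and no p-value.

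Keratins are the intermediate filament proteins of epithelial cells. Each filament is built from pairs of a smaller, acidic type I chain and a larger, neutral to basic type II chain, so the genes of both types tend to be used together. Simple epithelia, such as the glandular lining of the endocervix, use KRT8 with KRT18. Depending on the tissue, KRT7, KRT19 or KRT20 join them, with KRT20 in intestinal and urothelial surface cells. Basal cells of stratified epithelia use KRT5 with KRT14 and KRT15, and cells that leave the basal layer change to pairs such as KRT1 with KRT10 in skin and KRT4 with KRT13 in mucosa. KRT6A, KRT6B, KRT6C, KRT16 and KRT17 are induced by wounding and in many squamous tumours and are called activation keratins here. The remaining large groups build the hair shaft and its inner root sheath. Human type II genes lie in 1 cluster on chromosome 12, type I genes in another on chromosome 17, and KRT18 is the type I gene that lies at the end of the type II cluster.

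The high list held KRT7, KRT8, KRT18 and KRT17. The first 3 are simple epithelial keratins and KRT17 is an activation keratin. These were 10.8% of the listed keratins, against 50.6% of all symbols on 1 list alone. The low list held 89.2% of the listed keratins, against 49.4% of all symbols. Among the 55 functional keratin genes, 7.27% were high, 60.0% low and the remaining 18 genes (32.7%) on neither list. Over all 20056 protein coding symbols of RefSeq, 21.1% were high and 18.0% low. Keratins were thus less often high and more often low than either background, and no test over genes was made. Neighbouring keratins are copies of each other and are not independent.

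Each type had high and low members. Of 29 type I genes, 2 were high (KRT17 and KRT18), 16 low and 11 on neither list. Of 26 type II genes, 2 were high (KRT7 and KRT8), 17 low and 7 on neither list. The high share of the listed genes was 11.1% in type I and 10.5% in type II. The difference between the types was not tested.

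Among the 5 simple keratins, KRT7, KRT8 and KRT18 were high, KRT20 was low and KRT19 was on neither list. KRT20, a keratin of intestinal and urothelial surface cells, was the simple keratin on the low list. KRT8 and KRT18 form the filament pair that simple epithelia express first, and both partners were high. KRT7 is a type II chain of ductal and glandular epithelium that is also found in cervical carcinoma. Its frequent type I partner KRT19 was on neither list, so the lists place 1 side of that pair.

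The keratins of stratified epithelium were mostly low or on neither list. KRT5, the type II chain of basal cells, was low, while its type I partners KRT14 and KRT15 were on neither list. Of 5 activation keratins, KRT17 was high, KRT6B and KRT6C were low, and KRT6A and KRT16 were on neither list. Of 11 suprabasal keratins, 0 were high and 6 were low. The 6 were KRT1, KRT2 and KRT76 of cornifying or oral epithelium, KRT77, and KRT3 and KRT12, the corneal pair. KRT4, KRT9, KRT10, KRT13 and KRT78 were on neither list. Of 7 textbook pairs set out after the lists had been seen, KRT8 with KRT18 was high on both sides and KRT3 with KRT12 low on both sides. KRT6A with KRT16 and KRT4 with KRT13 were on neither list on both sides. The pairs of KRT7, KRT5 and KRT1 had a type II chain on a list (high for KRT7, low for KRT5 and KRT1) and a type I chain on neither.

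The hair and root sheath keratins made up most of the low list members. All 9 root sheath keratins were low. They were KRT25, KRT26, KRT27 and KRT28 of type I, and KRT71, KRT72, KRT73, KRT74 and KRT75 of type II. Of 17 hair keratins, 13 were low, 0 high and 4 (KRT32, KRT34, KRT81 and KRT86) on neither list. Of 5 other epithelial keratins, KRT24 was low, and KRT23, KRT79, KRT80 and KRT222 were on neither list. Together 22 of the 33 low members were keratins of the hair follicle. They were also 22 of all 37 listed keratins, so their large share of the low members is to be read beside the size of these classes.

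**Figure D1:**
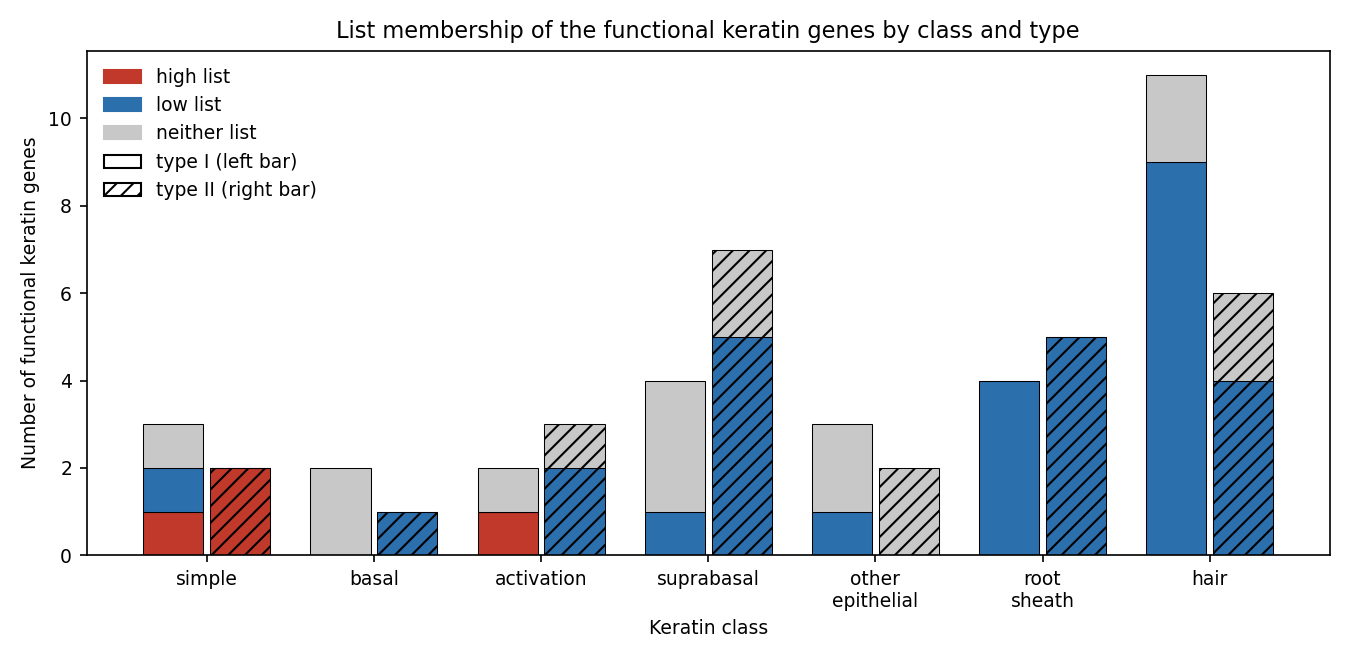
Number of functional keratin genes (vertical axis) in each class (horizontal axis), with type I in the left and type II in the right bar and colours for the high, low and neither list. High genes appear in the simple class (3 genes) and the activation class (1 gene), and all 9 root sheath genes are low.

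Along the chromosomes, the high genes stood at the ends of the listed series. On hg19 chromosome 12, 20 listed keratins lay between 52626898 and 53346685, a span of 719.8 kb. The first was KRT7 (52626898 to 52662180), followed by 17 low genes in a row from KRT83 (52708085 to 52715182) to KRT3 (53183469 to 53189901). KRT8 (53290977 to 53343666) and KRT18 (53342655 to 53346685) came last, after the widest gap between listed keratins there, 101 kb. RefSeq order places the unlisted genes KRT4, KRT79 and KRT78 in that gap, and KRT80 before KRT7. It also places the unlisted KRT86 and KRT81 between KRT7 and KRT83, and the unlisted KRT6A inside the row of low genes. No listed gene other than a keratin lay inside this span.

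On chromosome 17, 17 listed keratins spanned 926.6 kb, from 38854243 to 39780829. A row of 16 low genes ran from KRT24 (38854243 to 38860002) to KRT36 (39642388 to 39648798), and KRT17 (39775689 to 39780829) stood alone at the far end. The stretch between KRT36 and KRT17 measured 127 kb and in RefSeq order holds KRT13, KRT15, KRT19, KRT9, KRT14 and KRT16, all on neither list. The row of low genes was itself parted by 360 kb between KRT40 and KRT33A. In RefSeq order the unlisted KRT10, KRT23, KRT34 and KRT32 also lie inside this row. The span held 31 keratin associated protein genes, which encode matrix proteins of hair, and all 31 were low, against 49.4% of all listed symbols. None of the 89 listed keratin associated protein genes over all chromosomes was high, so this was not particular to the span. The 33 low keratins all lay on the minus strand, as did KRT8 and KRT17, while KRT7 and KRT18 lay on the plus strand.

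**Figure D2:**
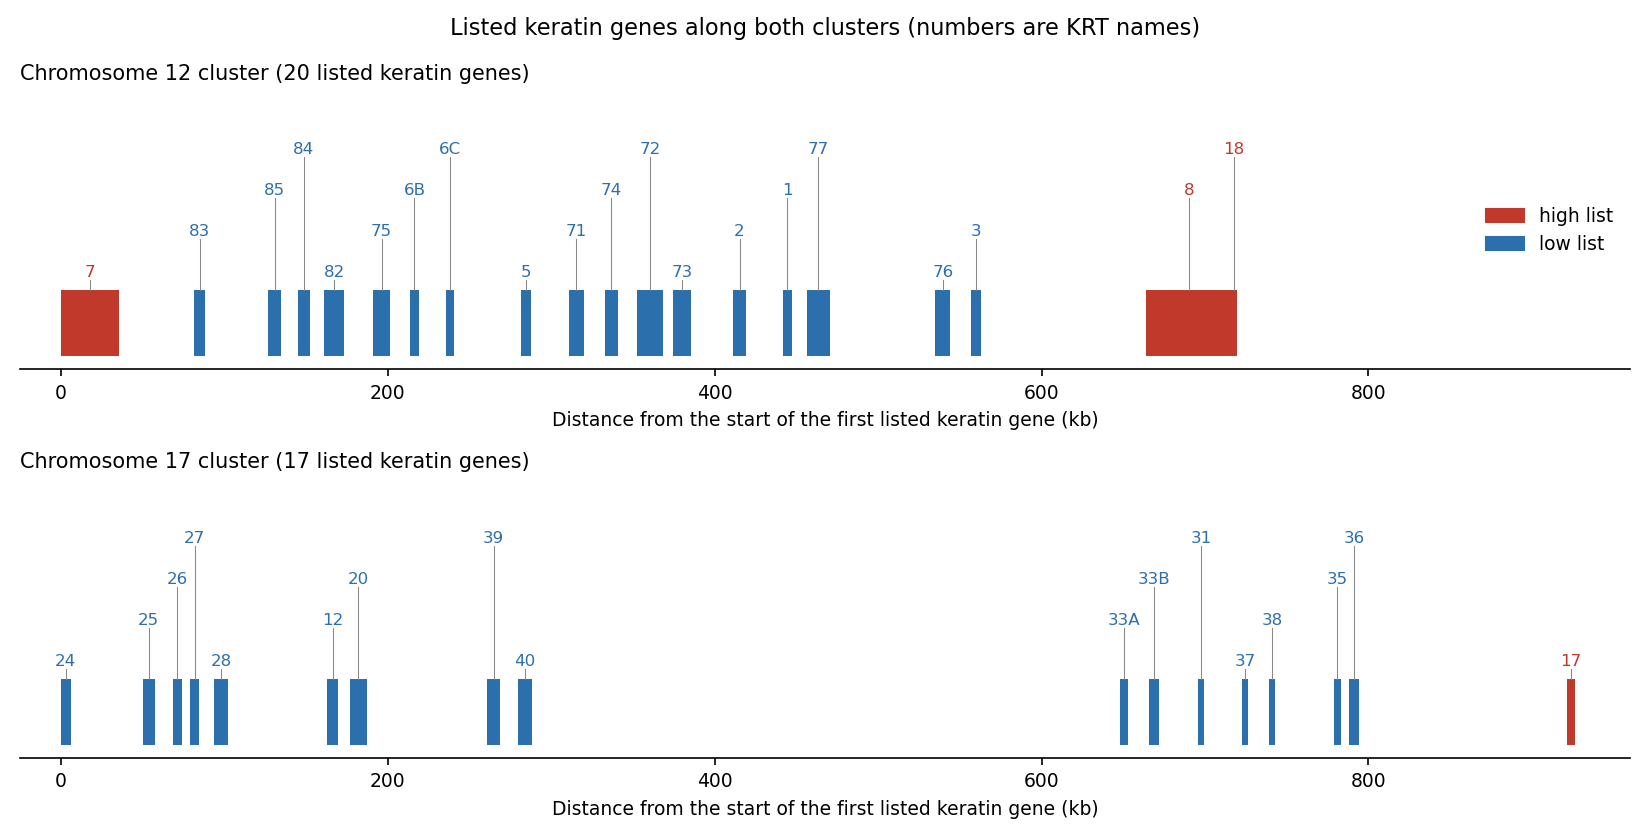
Listed keratin genes by distance in kb from the first listed keratin of each cluster (horizontal axis), with boxes as long as the listed gene and colours for the list. On chromosome 12 the 17 low genes lie between KRT7 and the pair KRT8 and KRT18, and on chromosome 17 the 16 low genes precede KRT17.

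The genes around the clusters were mostly high. Of the 10 nearest listed genes on each side, 10 were high before the chromosome 17 cluster and 8 after it. After the chromosome 12 cluster 8 were high, and before it 5, with the nearest 4 (ACVRL1, ANKRD33, CELA1 and BIN2) low. The translation initiation factor gene EIF4B, 53.3 kb beyond KRT18, and the chromatin remodelling gene SMARCE1, 49.5 kb before KRT24, were the nearest listed genes there, and both were high. Listed genes other than keratins were high at 62.0% on chromosome 12 and 59.6% on chromosome 17.

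Overlapping annotation touches all high keratins but KRT7. KRT8 and KRT18 lie on opposite strands, and their listed spans shared 1012 bp. The listed KRT8 span of 52690 bp was the longest of the 37 members, and GENCODE gives the gene 5 different starts among its basic coding transcripts. The listed span of JUP, which encodes the junction protein plakoglobin, ran from 39775692 to 39943183 on the minus strand and covered 99.9% of KRT17 on the same strand. JUP was also on the high list. Fragments inside the shared 5138 bp could not be given to KRT17 or JUP from the listed spans alone, while most of the JUP span lay outside KRT17. Overlap of exons was not examined, and the part of either gene in the listing of the other was not tested. None of the 33 low keratins overlapped another listed gene.

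Sequence copies also bear on which gene a fragment was given to. RefSeq names 68 pseudogenes after KRT18, 52 after KRT8 and 8 after KRT17, and 0 of its 152 keratin pseudogenes were on either list. The share of all pseudogenes on the lists was not counted, and the annotation behind the lists is not known. The 0 is therefore not read as a result about keratin pseudogenes. The coding sequence was cut into overlapping stretches of 50 bases, and the share found exactly in a GENCODE transcript of another gene was counted. It was 45.6% for KRT8, 38.8% for KRT18, 17.2% for KRT17 and 1.25% for KRT7. For KRT8 the copies were spread over 36 other genes, led by KRT8P3, and for KRT18 over 43, led by KRT18P11. KRT7 was thus the high keratin with the least shared coding sequence, and its listed span overlapped no other listed gene.

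Close copies among the low keratins were found in the activation and hair classes. KRT6B and KRT6C had 98.5% identical coding bases, and 62.6% and 71.6% of their stretches occurred in other genes. KRT6A, which was on neither list, was 97.5% identical to KRT6B and 97.9% to KRT6C. KRT33A and KRT33B had 95.3% identity, KRT37 and KRT38 92.0%, and KRT31 and KRT33B 91.3%, all of them pairs of low genes. KRT83 was closest to KRT81 (89.6%), which was on neither list. RefSeq also holds KRT6C as an older name of KRT6A, and the listed KRT6C follows KRT6B directly, as in the RefSeq order. Fragments of such close copies may have been divided by the counting. The separate places of KRT6B and KRT6C on the low list and of KRT6A on neither list are therefore uncertain. In contrast, 9 low keratins, among them KRT1, KRT2, KRT12 and KRT20, shared no stretch of 50 coding bases with another gene. For KRT5 the share was 5.75%.

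**Figure D3:**
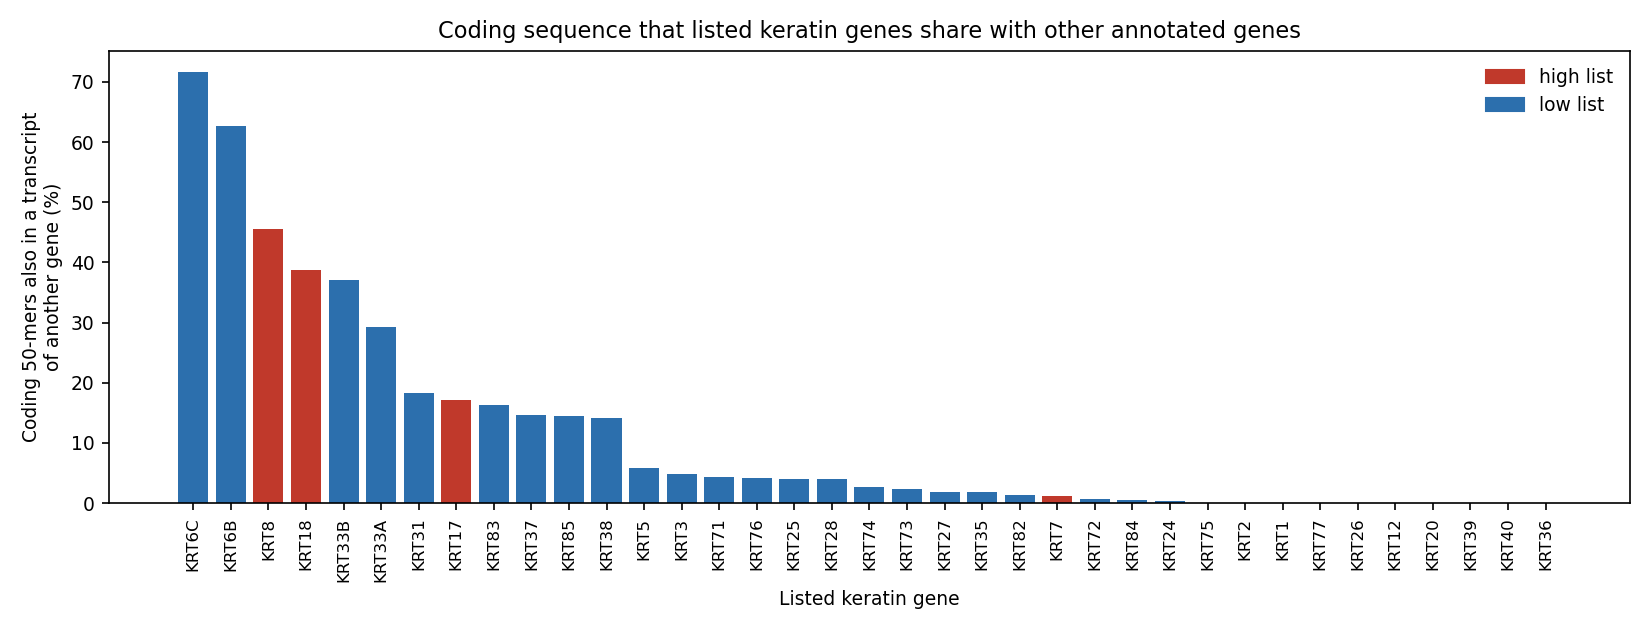
Percent of coding stretches of 50 bases that also occur in a transcript of another gene (vertical axis) for each of the 37 listed keratins (horizontal axis), coloured by list. KRT6C and KRT6B lead at 71.6% and 62.6%, KRT8 and KRT18 follow at 45.6% and 38.8%, and KRT7 stands at 1.25%.

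The promoters of the low keratins often held a TATA box at nearly the same distance from the start. RefSeq promoter windows (GRCh38.p14) matched 28 of the 37 members, of which 27 were low and KRT8 was high. KRT1, KRT6B, KRT6C, KRT7, KRT17, KRT18, KRT72, KRT77 and KRT83 had no window in this table. In 14 of the 27 low keratins the letters TATAAA, the TATA box that positions the transcription machinery, stood on the gene's strand and began 27 to 31 bases before the start. The search covered boxes that began 20 to 45 bases before the start, a range set after the positions had been seen, and counted a gene where any of its windows held the box. The box was present in 3.02% of all 27305 genes with a window, in 9.25% of the listed low genes and in 2.04% of the listed high genes. The distance was not compared with that in other genes that hold the box, so it is not read as particular to keratins. The last 120 bases before the start are printed for 10 of the 14 genes, to show the box and its distance, with the box in capitals.
KRT31 (chr17:41397609-41397728, minus strand): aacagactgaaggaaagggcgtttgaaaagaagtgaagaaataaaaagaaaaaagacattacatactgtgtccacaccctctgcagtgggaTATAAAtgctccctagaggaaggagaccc
KRT33A (chr17:41350829-41350948, minus strand): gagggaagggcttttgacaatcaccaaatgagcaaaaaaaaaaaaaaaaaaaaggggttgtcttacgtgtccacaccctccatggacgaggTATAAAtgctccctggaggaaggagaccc
KRT33B (chr17:41369814-41369933, minus strand): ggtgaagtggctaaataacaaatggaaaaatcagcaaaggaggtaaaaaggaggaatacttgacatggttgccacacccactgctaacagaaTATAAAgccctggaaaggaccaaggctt
KRT35 (chr17:41481152-41481271, minus strand): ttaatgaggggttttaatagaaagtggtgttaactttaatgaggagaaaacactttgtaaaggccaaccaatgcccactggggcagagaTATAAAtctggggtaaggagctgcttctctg
KRT25 (chr17:40755332-40755451, minus strand): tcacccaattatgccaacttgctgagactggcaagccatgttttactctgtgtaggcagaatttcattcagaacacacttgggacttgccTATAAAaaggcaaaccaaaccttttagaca
KRT27 (chr17:40782551-40782670, minus strand): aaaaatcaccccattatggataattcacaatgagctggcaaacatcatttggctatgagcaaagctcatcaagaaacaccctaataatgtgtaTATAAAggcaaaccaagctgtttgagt
KRT71 (chr12:52553146-52553265, minus strand): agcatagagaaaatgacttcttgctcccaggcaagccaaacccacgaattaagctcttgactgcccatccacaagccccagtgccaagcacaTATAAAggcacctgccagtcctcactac
KRT3 (chr12:52796118-52796237, minus strand): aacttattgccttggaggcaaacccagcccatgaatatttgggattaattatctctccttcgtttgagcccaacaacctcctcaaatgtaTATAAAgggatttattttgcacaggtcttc
KRT76 (chr12:52777346-52777465, minus strand): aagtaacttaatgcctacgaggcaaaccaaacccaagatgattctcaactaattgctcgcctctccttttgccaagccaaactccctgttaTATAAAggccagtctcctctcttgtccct
KRT24 (chr17:40703753-40703872, minus strand): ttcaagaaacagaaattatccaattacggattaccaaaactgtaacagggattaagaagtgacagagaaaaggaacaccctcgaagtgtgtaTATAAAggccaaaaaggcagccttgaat

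The box was found in 11 of 16 low type I keratins and in 3 of 11 low type II keratins. The low keratins without a window, KRT1, KRT6B, KRT6C, KRT72, KRT77 and KRT83, were all type II. Thus 11 of the 17 low type II genes were covered but all 16 of type I, and the difference between the types was not tested. By class it was present in 7 of 12 hair, 4 of 8 root sheath and 2 of 4 suprabasal keratins with a window, and in KRT24. With 1 letter of the box allowed to differ, 25 of the 27 held a match in the same range (92.6%), against 28.5% of the listed low genes that are no keratin and 14.9% of all genes. The shares were not adjusted for composition. Median G and C was 43.6% in the low keratins, 51.6% in these other low genes and 58.0% in all genes. Among the 6 keratins on neither list that had a window, KRT10 and KRT34 held the exact box, and 5 (83.3%) held a match with 1 letter allowed to differ. The box was thus not limited to low keratins. The basal KRT5, the corneal KRT12, the simple KRT20 and the high KRT8 lacked the exact letters in this range and are printed for comparison. The KRT8 window belongs to 1 of several starts of that gene. Judged by the positions of KRT3 and KRT76 in both builds, it lies inside the listed KRT8 span and not at its start.
KRT5 (chr12:52520395-52520514, minus strand): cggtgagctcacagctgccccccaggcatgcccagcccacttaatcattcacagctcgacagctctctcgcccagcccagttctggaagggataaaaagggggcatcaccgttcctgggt
KRT12 (chr17:40867224-40867343, minus strand): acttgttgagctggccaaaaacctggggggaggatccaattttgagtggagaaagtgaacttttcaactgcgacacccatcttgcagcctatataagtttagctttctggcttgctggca
KRT20 (chr17:40885243-40885362, minus strand): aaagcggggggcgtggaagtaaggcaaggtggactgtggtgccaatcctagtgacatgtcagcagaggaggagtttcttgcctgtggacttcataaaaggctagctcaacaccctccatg
KRT8 (chr12:52926470-52926589, minus strand): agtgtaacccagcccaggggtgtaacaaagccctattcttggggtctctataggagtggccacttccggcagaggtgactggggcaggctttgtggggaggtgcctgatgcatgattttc

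Low keratin promoters were poor in G and C. The 250 bases before the start held 28.8% to 57.2% G and C, with a median of 43.6%, against a median of 51.6% in all listed low genes and 65.6% in listed high genes. The ratio of observed to expected CpG, the dinucleotide that marks CpG islands, ran from 0 to 0.391 with a median of 0.139. Its median was 0.283 in listed low genes, 0.848 in listed high genes and 0.546 in all genes. The 6 keratins on neither list with a window had a median CpG ratio of 0.151 and a median of 51.4% G and C, so a low CpG ratio was not limited to the low keratins. KRT28 had the lowest share of G and C, and KRT75 (57.2%) and KRT5 (56.0%) the highest. KRT8, the high keratin with a window, had 50.4% G and C and a CpG ratio of 0.0663. These values lay within the range of the low keratins, but the KRT8 window is not at the start of the listed span. With 1 high gene, no comparison of high and low keratin promoters was made.

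**Figure D4:**
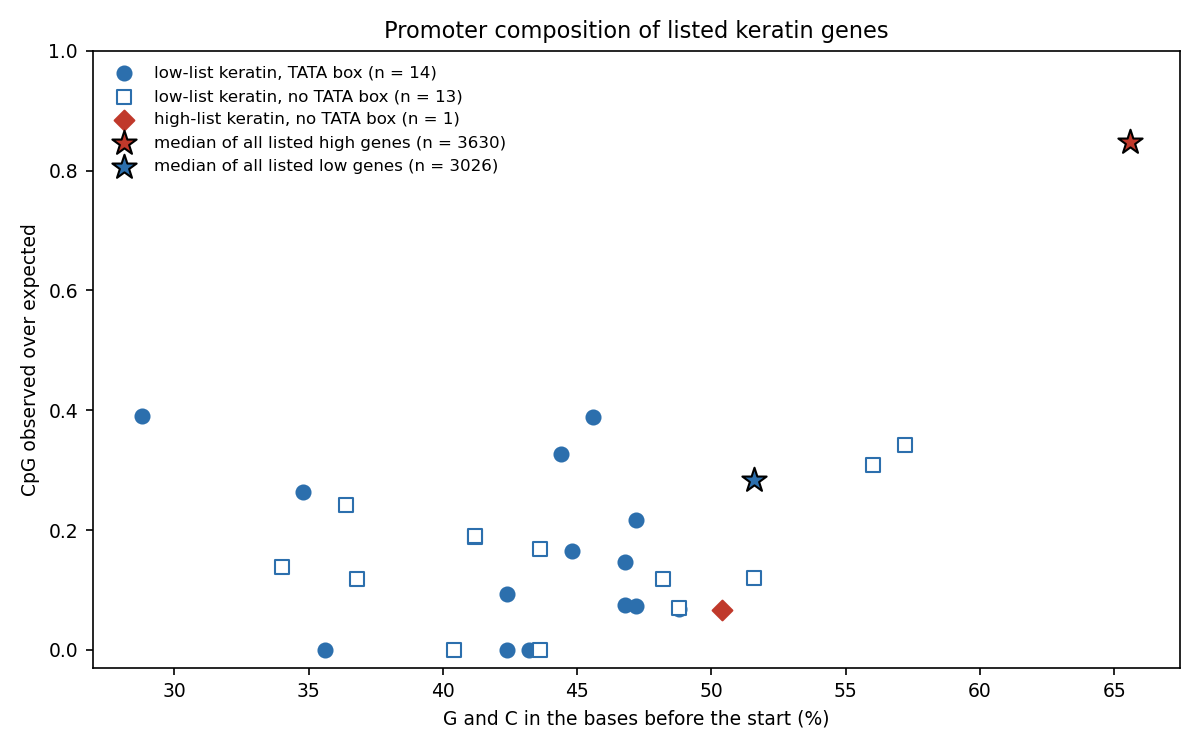
Percent of G and C (horizontal axis) and CpG observed over expected (vertical axis) in the 250 bases before the start of 28 listed keratins, 1 point per gene, with stars at the medians of all listed high and low genes. The keratins lie at CpG ratios of 0 to 0.391, under the listed high median of 0.848, and KRT8 (50.4% G and C) lies among the low keratins. The KRT8 window is not at the start of the listed span.

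Listed spans were short in the low keratins and also in the high KRT18 and KRT17. The 33 low keratins measured 3645 to 15950 bp, with a median of 7098 bp, and the high ones 4031 bp (KRT18), 5141 bp (KRT17), 35283 bp (KRT7) and 52690 bp (KRT8). Over all listed symbols the median was 10878 bp on the low and 33229 bp on the high list.

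Partner genes of keratins were read against the 21.1% high and 18.0% low of all protein coding symbols, with no test. Of 19 genes of desmosomes, hemidesmosomes and keratin linkers, which anchor keratin filaments, 9 were high, 3 low and 7 on neither list. The 9 include JUP, whose listed span covers KRT17. The high genes included DSP, the desmosomal plakin that binds keratin directly, with JUP, PKP3 and DSG2 of the same junction, and the cytolinkers PLEC, PPL, EVPL and DST. The low genes were DSG1, DSC1 and DSC2, desmosomal cadherins, of which DSG1 and DSC1 are those of the upper epidermis. Of 15 other intermediate filament genes, 6 were high, 4 low and 5 on neither list. Both the high and the low share were above those of all protein coding symbols. The listed ones were divided much as the 50.6% high of all listed symbols. The nuclear lamins LMNA, LMNB1 and LMNB2 were high, as were NEFH, INA and SYNM, while DES of muscle, GFAP of glia, NEFM and BFSP2 were low. VIM, the mesenchymal filament protein, was on neither list.

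Of 18 regulators of epithelial genes, KLF5 and TFAP2A were high, GRHL2 was low, and 15 were on neither list, among them TP63, which maintains basal squamous cells. Fewer of these regulators were listed in either direction than of all protein coding symbols (21.1% high and 18.0% low). The epithelial markers EPCAM and CDH1 were also on neither list, and of 8 markers of cervical and squamous epithelium only KRT8 and KRT18 were high, with KRT5 low. Of markers of other cell types, PTPRC and CD3D of leukocytes, KDR of endothelium, COL1A2 of fibroblasts and MUC5B of endocervical gland were low, and KRT7, also listed for endocervical gland, was high. The other fibroblast markers COL1A1, DCN and VIM and the endothelial marker PECAM1 were on neither list.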

How the data were processed

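RNA-seq of migrated and non-migrated SiHa cells was used as deposited. Build hg19, CASAVA 1.8.2, TopHat2, Cuffdiff and Cufflinks 2.2.1 appear in the submitters' processing notes. For the annotation and the strand setting, the sources used here give nothing. Per the file headers, both deposited lists give symbols with hg19 positions. Per the file headers, the deposited Cuffdiff table gives estimated counts of fragments per locus and library, which were summed for depth alone.

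The lists held 4531 and 4436 rows, 4531 and 4419 symbols. The 4 symbols on both lists were left out, and repeated symbols were counted once. The members and lists were chosen with earlier results of these data known. All high keratins and all low ones outside the hair and root sheath classes were named, and some of these classes too.

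Functional keratins, names and order came from RefSeq, and promoter windows of 300 bases (250 before and 50 after the start) from its GRCh38.p14 table, without conversion of coordinates. Boxes of 6 letters, CpG and G and C were counted in the 250 bases before the start, and genes with several windows were given the median. Coding sequences were the longest basic coding transcript of GENCODE release 29, aligned globally with Biopython 1.88. The planned protein identity was replaced by coding identity. The motif search and the alignment were tested on simulated sequences. No test between groups was made.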

Additional observations from a re-analysis of the deposited data

How the results depend on the processing

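The counts of 4 high and 33 low keratins were the same with the class lists only, with RefSeq protein coding genes only, with 1 count per row and inside both cluster spans only. The first and the last of these could not change them, since every member had been given a class and the spans were drawn from the listed keratins. The high share of the background moved from 50.6% to 54.4% without keratin associated, olfactory receptor, defensin and LINC genes, to 54.0% with RefSeq protein coding genes only, and to 60.8% on chromosomes 12 and 17, where keratins were left out. The last setting and those of the TATA box were chosen after seeing the data. With activation keratins counted as basal, 25.0% of 4 listed genes were high (KRT17), against 0% of 1, and hair keratins alone gave 0% of 13. The median low keratin promoter stood at percentile 15.5 of all genes for the CpG ratio and 19.8 for the share of G and C. The box was found in 14 of 27 genes, in 13 where every window had to hold it, in 17 with the letters TATAA, and in 19 on either strand anywhere before the start. No paired analysis was possible because the lists have no libraries and the loci of the fragment table have no gene names. The choice of 50 bases for shared coding sequence was not varied, and the sources used here give no read length.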

Other observations

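Further motifs were counted in the same 250 bases of the 27 low keratins. The GC box GGGCGG, searched on both strands, was present in 3 of them (11.1%), against 30.9% of the listed low genes that are no keratin and 78.8% of listed high genes. The 3 were KRT37, KRT38 and KRT75. The letters TGANTCA, with any base at N, read the same on both strands and are looser than the site bound by AP-1 factors. They were present in 0 of the 27, against 9.87% of the listed low genes that are no keratin and 8.06% of all genes. These letters are absent from these windows alone, and nothing follows from that for the factors.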
